A study of Homo sapiens with 12 samples.

Results

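The genes described here were nearly silent in control cells and gathered reads when an activating dCas9 fusion was brought to LTR5HS, and there were 49 of them among the 26641 genes of the count table. LTR5HS is a class of long terminal repeats left in ape genomes by the endogenous retrovirus HERVK. A gene entered the set when it had 5 or fewer raw counts in each of the 4 control libraries of the dCas9-VPR lines and 25 or more in both recruitment libraries of that fusion. Before names were left out, 59 genes met these limits, which is 0.221% of the table and 0.642% of the 9189 genes at 5 or fewer counts in every dCas9-VPR control library. The 10 left out by name were CST4, CST5, HOXA10-AS, HOXA11-AS, HOXA13, HOXB8, HOXD8, HOXD10, ITLN1 and NLRP7. The members were chosen by the raw counts of the 6 dCas9-VPR libraries, so those counts are given as a description, with no test. The dCas9-KRAB libraries took no part in the choice.

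RNA-seq was made from 6 lines of NCCIT, a human embryonal carcinoma cell line, with 2 biological replicates each and 12 libraries in all. Every line carried a doxycycline-inducible fusion of S. pyogenes dCas9, a Cas9 that binds DNA without cutting it, and all cells received doxycycline for 4 days. The fusion was either VPR, a strong transcriptional activator (CRISPRa), or KRAB, a repressor domain (CRISPRi). Both the fusion and an array of 12 guides were integrated with PiggyBac and selected with puromycin and G418, and the methods describe no cloning of single cells. Recruitment lines held LTR5HS guides on the S. pyogenes scaffold (LTR5HS Sp). Control lines held the same guides on the S. aureus scaffold (LTR5HS Sa), which the fusion does not load, or guides on the S. pyogenes scaffold that match no target (nontarget Sp). Line and guide array cannot be told apart, as each combination was 1 line.

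Long terminal repeats carry the promoter and enhancer sequences of a retrovirus, and copies that stay in the genome can act on nearby or distant host genes. The VPR domains draw the transcription machinery to a bound site, and KRAB draws corepressors that lay down silent chromatin. A gene that is silent in a cell type may be kept off by DNA methylation, by repressive chromatin or by the lack of its activators, and most tissue-restricted genes are in that state in embryonal carcinoma cells. RNA levels in bulk samples do not tell whether few cells transcribe a gene strongly or many do so weakly.

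The 12 guides of the array show what the fusions could bind, and they are printed with the adjacent motif in capitals, where N is any base.
LTR5HS-1: tactaagggaactcagNGG
LTR5HS-2: aaaaccgccttagggcNGG
LTR5HS-3: aaaactgccttagggcNGG
LTR5HS-4: agcccgacacccgtaaNGG
LTR5HS-5: aggagaaaaccaccttNGG
LTR5HS-6: taccatctcggagaggNGG
LTR5HS-7: aaccttggacaataccNGG
LTR5HS-8: taaagggtctgtgctgNGG
LTR5HS-9: gacattccattgcccaNGG
LTR5HS-10: atagagaaagaaaagtNGG
LTR5HS-11: gaaacgcccacaggtgNGG
LTR5HS-12: aagctttcttgcttagNGG
Each guide has 16 matching bases, and exact matches followed by the motif occurred 2938 times in the hg38 genome. LTR5HS-8 matched most often, at 726 places, and LTR5HS-12 matched at 2. Matches within 1000 bp of each other were joined, which gave 648 clusters matched by at least 2 different guides, with a median span of 489 bp and at most 7 guides in a cluster. These clusters are sequence matches, and binding was not measured in the data used here.

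Library totals ran from 13601701 to 24840708 counts, except for replicate 2 of the KRAB nontarget Sp line, which held 69797411. At these totals 5 counts equal 0.0716 CPM, that is counts scaled to library size, in that deepest library and 0.368 CPM in the shallowest. Pluripotency markers were detected in every group, but their summed level was 1752 to 2735 CPM in the 6 VPR libraries and 6540 to 8159 CPM in the 6 KRAB libraries, and NANOG was at 1.10 to 5.39 CPM in VPR lines, controls included. The fibroblast marker list, 8 genes in all, summed to 3002 and 3089 CPM in VPR recruitment and to 132 to 192 CPM in VPR control. COL1A1 made up 2840 and 2920 CPM of the former, against 63.9 to 94.2 CPM in control. PDGFRB was at 40.4 and 48.1 CPM against 8.91 to 13.3, and THY1 at 108 and 114 CPM against 44.8 to 80.1, while COL1A2 and DCN, both defining fibroblast genes, were at or near 0 in all VPR libraries. The endoderm list summed to 13.4 and 14.4 CPM with VPR recruitment against 7.43 to 8.85 CPM, with ALB and AFP near 0, and the muscle list to 173 and 179 CPM against 119 to 173 CPM. The trophoblast list was at 387 to 442 CPM against 434 to 585 CPM. Within it GATA2, GATA3 and CDX2 were higher in both recruitment libraries than in each VPR control. They stood at 51.9 and 50.7, 30.4 and 21.3, and 11.8 and 10.4 CPM against at most 19.02, 13.0 and 1.78 CPM. TFAP2A was lower than in each VPR control, at 103 and 106 CPM against 112 to 369 CPM. HAND1 and TFAP2C overlapped between the groups, and CGA was at 0 with recruitment. The neural list was lower with recruitment, at 148 to 169 CPM against 195 to 293 CPM. Most of that sum was TUBB3, at 128 and 107 CPM against 161 to 251 CPM. GFAP of the same list went the other way, at 13.5 and 15.7 CPM against 3.42 to 4.72 CPM. The blood, keratinocyte and germ cell lists, at no more than 20.8 CPM, overlapped between the groups. No marker was among the 49 genes, and the part of these marker differences in the results below was not tested.

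**Figure D1:**
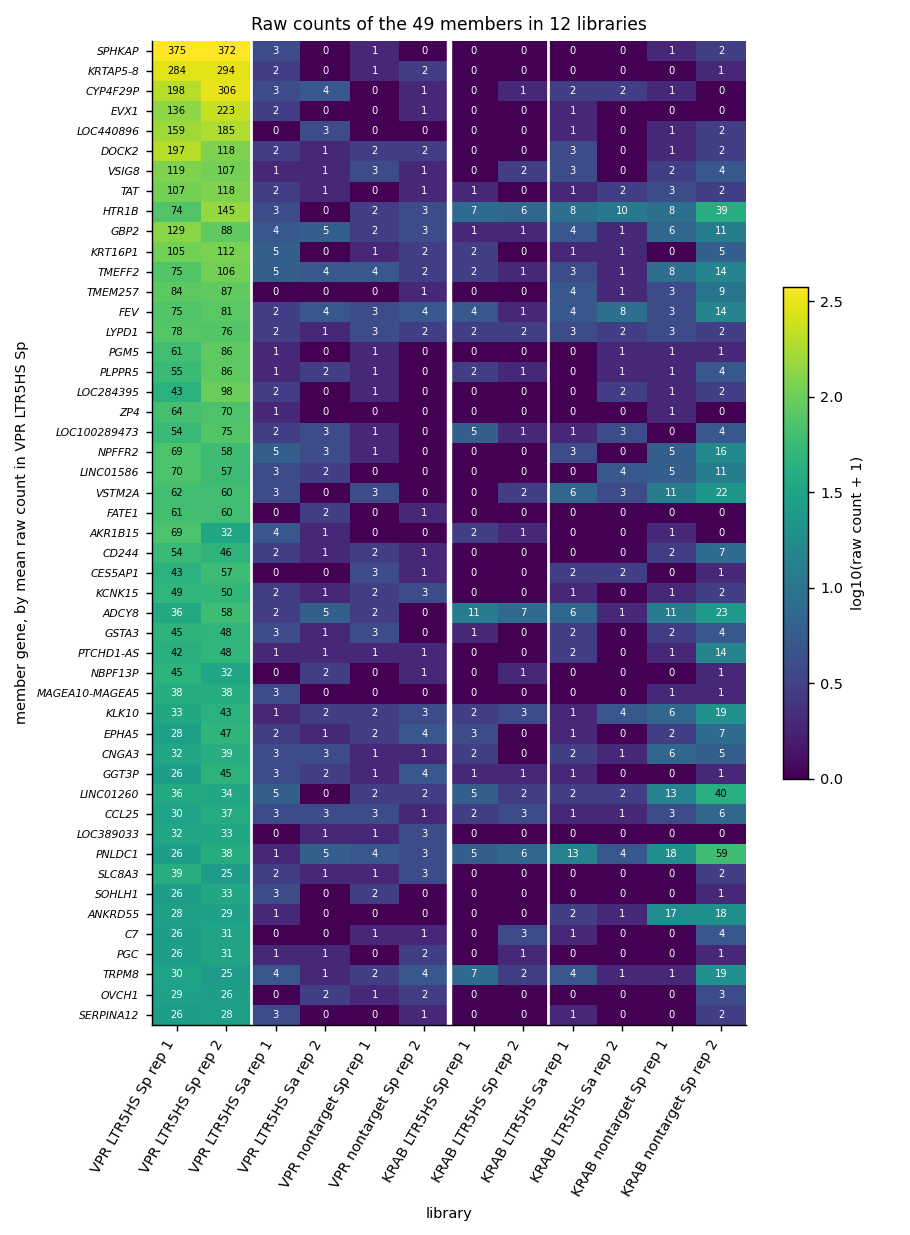
Raw counts of the 49 genes (rows, ordered by mean count in VPR LTR5HS Sp) in the 12 libraries (columns), coloured by log10 of the count plus 1. The VPR LTR5HS Sp libraries hold 25 to 375 counts per gene, all other VPR libraries hold 5 or fewer by the rule, and the KRAB libraries hold 0 to 59.

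With recruitment of dCas9-VPR, the 49 genes together held 3628 and 4021 counts in the 2 replicates, or 198 and 209 CPM. In the 4 VPR control libraries they summed to between 66 and 103 counts, which is 3.66 to 5.04 CPM. The fitted log2 fold change over control, from edgeR across all genes, had a median of 5.38 over the set and ran from 3.38 to 8.52. These values follow from the rule and are not a result. In the same fit 15.7% of 16271 genes were called higher. Each member had at least 1 count somewhere in the VPR controls, 11 had 1 to 3 counts over all 4 libraries, and the highest sum was 15. Folds of single members therefore rest on a few control reads and are not given.

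The gene with the most reads was SPHKAP, which encodes an anchoring protein for cyclic AMP-dependent kinase known from heart and nervous tissue. It had 375 and 372 counts in the VPR recruitment libraries and 3, 0, 1 and 0 in the controls. KRTAP5-8, a keratin-associated protein of the hair shaft, had 284 and 294 counts against 2, 0, 1 and 2. In both genes the replicates lay close together, and the low control counts follow from the rule. KRTAP5-8 belongs to a family of very similar genes, and its neighbour KRTAP5-7 had 18 and 14 counts with recruitment, so the division of reads between them is uncertain.

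The pseudogene CYP4F29P followed with 198 and 306 counts, and it had 3, 4, 0 and 1 in the controls. EVX1, a homeobox transcription factor of the posterior embryo and spinal cord, had 136 and 223 counts against 2, 0, 0 and 1. The long non-coding RNA LOC440896 had 159 and 185 counts, with 3 reads in 1 control library and 0 in the other 3. DOCK2, an activator of the GTPase Rac in white blood cells, had 197 and 118 counts against 2, 1, 2 and 2. The separation from control in both replicates follows from the rule. The replicates of CYP4F29P, EVX1 and DOCK2 were further apart than those of SPHKAP. CYP4F29P is a copy of other P450 genes, so reads could be shared with them.

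VSIG8, an immunoglobulin-domain membrane protein, had 119 and 107 counts with recruitment and 1 to 3 in control. TAT, the liver enzyme tyrosine aminotransferase that breaks down tyrosine, had 107 and 118 counts and at most 2 in control. HTR1B, a serotonin receptor that inhibits adenylyl cyclase, had 74 and 145 counts against 3, 0, 2 and 3. Here the replicates differed more than in TAT or VSIG8. GBP2, an interferon-inducible guanylate-binding protein, had 129 and 88 counts, and its controls at 4, 5, 2 and 3 stood at the limit of the rule. The keratin pseudogene KRT16P1 had 105 and 112 counts against 5, 0, 1 and 2. TMEFF2, a transmembrane protein with follistatin-like domains, had 75 and 106 counts against 5, 4, 4 and 2.

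Levels between genes were compared per length, as mean TMM-scaled CPM per kilobase of the gene model in VPR recruitment. On that scale KRTAP5-8 at 13.2 and CYP4F29P at 10.6 led the set, and SPHKAP, which is long, ranked 10 at 2.93. The median of the set was 1.43 and the lowest value was 0.206, in EPHA5, an ephrin receptor. By mean CPM in VPR recruitment, 8026 of the 26641 genes of the table were above SPHKAP, and 13921 were above the lowest member, SERPINA12.

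Of the 9057 silent genes with names kept, 1819 had at least 1 count in both VPR recruitment libraries and 257 had 6 or more. At 25 counts there were 49, at 50 counts 23, at 100 counts 9 and at 200 counts 2. The set is thus the top of a gradual distribution and has no natural edge. Just inside the lower limit, SLC8A3 had 39 and 25 counts, TRPM8 had 30 and 25 and C7 had 26 and 31. Just outside it, ACSM6 had 24 and 27 counts and IL36G had 24 and 34. At the control limit, ADCY8, GBP2 and KRT16P1 reached 5 counts in a control library. AIRE, the regulator of self-antigen expression in the thymus, reached 6 and was left outside with 185 and 243 counts in recruitment. ALDH3B2 and C20orf166-AS1 also reached 6 in a control.

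The ratio of the TMM-scaled replicates in VPR recruitment exceeded 1.5 in either direction for 11 of 49 members, or 22.4%. Among 5753 genes with at least 25 counts in both libraries and a mean no higher than that of SPHKAP, the share was 11.2%. The 2 sets were not matched for count level, and the median member had 54 and 57 counts in replicates 1 and 2. The difference in shares was not tested. LOC284395 had the largest ratio, with 43 counts in replicate 1 and 98 in replicate 2, a ratio of 2.20. AKR1B15, an aldo-keto reductase, went the other way with 69 and 32 counts, a ratio of 0.447.

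**Figure D2:**
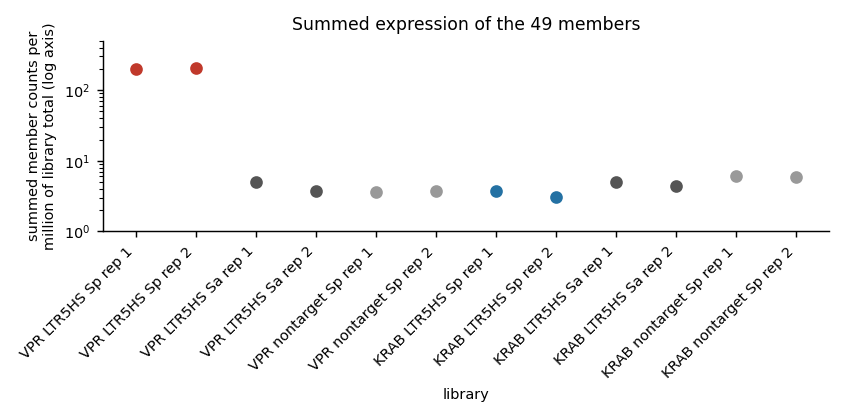
Summed CPM of the 49 genes, relative to the library total (log axis), 1 point per library. The 2 VPR LTR5HS Sp libraries stand at 198 and 209, by the rule that chose the genes, and the other 10 libraries lie between 3.11 and 6.04.

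RefSeq entries were found for 48 members, and 36 of the 48 are protein-coding, 7 (14.6%) transcribed pseudogenes and 5 (10.4%) long non-coding RNAs. Among the silent genes with a position 42.6% are protein-coding, 5.54% transcribed pseudogenes, 28.3% long non-coding RNAs and 19.3% microRNA genes. None of the 1750 silent microRNA genes was a member. The libraries were made from poly(A) RNA, and reads were counted on gene models of very different lengths. The description of types was not tested.

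The proteins encoded have roles in many tissues. Families were read from gene symbols, so members of a family with other kinds of symbol are not in its count. By symbol pattern, cytochromes P450 and other detoxifying enzymes held 4 members of 96 silent genes in that list, namely CYP4F29P, AKR1B15, CES5AP1 and GSTA3. GSTA3, a glutathione S-transferase that also acts in steroid synthesis, had 45 and 48 counts with VPR recruitment. CES5AP1, a carboxylesterase pseudogene, had 43 and 57. Secreted proteases and their inhibitors held 3 of 113, the kallikrein KLK10 with 33 and 43 counts, the pepsinogen PGC with 26 and 31 and the adipose serpin SERPINA12 with 26 and 28. All 3 were near the lower limit. Keratins and epidermal proteins held 2 of 201, KRTAP5-8 and KRT16P1, and immune cell surface genes held 2 of 185. The latter were VSIG8 and CD244, a receptor of natural killer cells with 54 and 46 counts.

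The symbol list of ion channels held 2 of 96, the potassium channel KCNK15 with 49 and 50 counts and TRPM8, the cold and menthol sensor. CNGA3, a cyclic nucleotide-gated channel of cone photoreceptors with 32 and 39 counts, was a member outside that list. The symbol list of G protein-coupled receptors held 1 of 546, HTR1B, and NPFFR2, the receptor of neuropeptide FF with 69 and 58 counts, was a member outside it. Cytokines and chemokines held 1 of 88, CCL25, which attracts T cells to the gut and had 30 and 37 counts. Solute carriers held 1 of 78, the sodium-calcium exchanger SLC8A3, and lipoproteins and plasma proteins held 1 of 50, the complement component C7. The symbol list of cancer-testis and germline genes held 1 of 221, the read-through transcript MAGEA10-MAGEA5, with 38 counts in each replicate. MAGEA10 had 0 and 2 counts and MAGEA5 4 and 5 in the same libraries. FATE1, PNLDC1, SOHLH1 and ZP4, each known from testis, germ cells or the egg coat, were members outside that list.

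Non-coding RNAs by name held 7 of 4410 silent genes, led by LOC440896, LOC284395, LOC100289473 with 54 and 75 counts and LINC01586 with 70 and 57. The lists of transcription factor families, 72 silent genes, and of muscle genes, 18 silent genes, held no member. The transcription factor families listed do not include HOX genes. HOXA13, HOXB8, HOXD8 and HOXD10 met the count limits but were left out by name. The transcription factors EVX1, FEV and SOHLH1, which lie outside those families, were members, and they were singled out after their values were seen. FEV, an ETS factor that marks serotonin neurons, had 75 and 81 counts, and SOHLH1, a factor of early germ cells, had 26 and 33. These families describe the set, and no list was tested. Among the 9057 silent genes with names kept, 49 were members. Before names were left out, 0.642% of all silent genes met the count limits.

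The counts in the KRAB lines were independent of the rule. Of the 49 genes, 30 (61.2%) had 5 or fewer counts in all 6 KRAB libraries, against 86.1% of the 9189 genes that were silent in VPR control. In the 2 KRAB recruitment libraries 45 (91.8%) had 5 or fewer counts, against 96.5%, and 23 (46.9%) had none, against 67.2%. Thus most members were near silence in the KRAB lines too, but members showed some reads in KRAB libraries more often than silent genes as a whole. The comparison is between unequal sets, because each member had at least 1 read in VPR control, and it was not tested. The deepest library counts here. Without it 37 members had 5 or fewer counts in every KRAB library.

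No member reached 25 counts in either KRAB recruitment library, and the highest count there was 11, in ADCY8. In the KRAB control libraries 3 members reached 25, all of them in the deepest library alone: HTR1B with 39 counts, LINC01260 with 40 and PNLDC1 with 59. Summed over the set, the KRAB recruitment libraries held 67 and 48 counts, or 3.70 and 3.11 CPM. The KRAB controls held 90, 59, 150 and 407 counts, or 4.98, 4.34, 6.04 and 5.83 CPM. Both recruitment libraries were below all 4 controls on this scale. With the limits of the rule applied to the KRAB lines instead, 2 genes of the table qualified, DNAJC5B and LINC01548, and neither was a member.

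Recruitment of KRAB was compared with the pooled KRAB controls by edgeR's quasi-likelihood test over the 15520 genes that passed its filter on low counts. In that fit 430 genes, or 2.77%, were past an adjusted p of 0.05, with 129 (0.831%) higher and 301 (1.94%) lower. Only 2 of the 49 members passed the filter, and neither was called. The other 47 had too few reads to pass it. Without the filter edgeR fitted 47 members and called none, against 2.31% of all genes so fitted. DESeq2 gave an adjusted p to 6 members and called none, against 4.22% of genes.

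PNLDC1, a ribonuclease that trims the ends of piRNAs in germ cells, was the member with the highest mean level in the KRAB controls. It had 5 and 6 counts in KRAB recruitment, 13 and 4 with LTR5HS Sa and 18 and 59 with nontarget Sp. Its TMM-scaled level was 0.343 ± 0.0876 CPM (SD, n = 2) in the recruitment line, against 0.677 ± 0.256 CPM (SD, n = 4) in the control lines, and the groups overlapped through LTR5HS Sa replicate 2. The log2 fold change was -1.07 (SE 0.51) with an adjusted p of 0.400 by edgeR. HTR1B had 7 and 6 counts in KRAB recruitment, 8 and 10 with LTR5HS Sa and 8 and 39 with nontarget Sp. Its level was 0.399 ± 0.00819 CPM with recruitment and 0.541 ± 0.191 CPM in control, with overlap, and the log2 fold change of -0.40 (SE 0.48) had an adjusted p of 0.758 by edgeR. The difference was larger than the SD of either group in PNLDC1 and smaller than the control SD in HTR1B, and neither passed the test.

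ADCY8, an adenylyl cyclase of the nervous system that responds to calcium, was the member with the highest mean level in KRAB recruitment. It had 11 and 7 counts there and 6, 1, 11 and 23 in the controls, or 0.545 ± 0.103 CPM against 0.308 ± 0.162 CPM, a difference in the opposite direction to PNLDC1. LINC01260 had 5 and 2 counts in recruitment, 2 and 2 with LTR5HS Sa and 13 and 40 with nontarget Sp, so its reads came from the nontarget line and recruitment lay between the 2 control lines. TRPM8 had 7 and 2 counts in recruitment and 4, 1, 1 and 19 in control. VSTM2A, a secreted immunoglobulin-domain protein, had 0 and 2 counts in recruitment and 6, 3, 11 and 22 in control, or 0.0675 ± 0.0954 CPM against 0.343 ± 0.0915 CPM. Of these 4, the groups of LINC01260 and TRPM8 overlapped, whereas both recruitment libraries of ADCY8 lay above all 4 controls and those of VSTM2A below them. Without the filter the adjusted p of VSTM2A was 0.228 by edgeR.

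**Figure D3:**
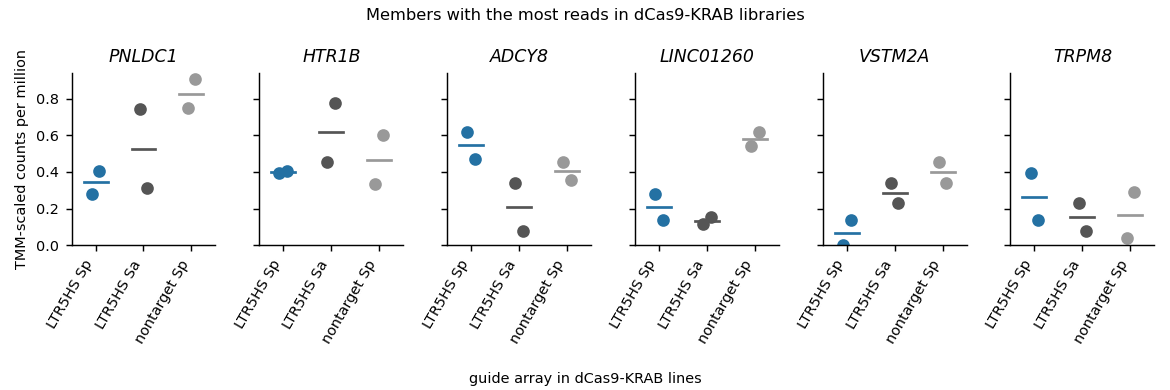
TMM-scaled CPM of 6 members in the dCas9-KRAB libraries, 1 point per library and a bar at the mean of each guide array. They are the 5 highest in KRAB control and TRPM8, the fourth highest in KRAB recruitment. PNLDC1 and HTR1B were the 2 members tested, and their recruitment and control libraries overlap.

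Among members with no read in either KRAB recruitment library, 11 had more than 3 reads over the KRAB controls. ANKRD55, an ankyrin repeat protein, had 2, 1, 17 and 18 counts in the controls, with the nontarget Sp libraries higher than the LTR5HS Sa libraries. NPFFR2 had 3, 0, 5 and 16. LINC01586 had 0, 4, 5 and 11, and TMEM257 had 4, 1, 3 and 9. These 4 were chosen after their values were seen. Their lowest adjusted p by edgeR without the filter was 0.140, in ANKRD55. At the other end, FATE1, a protein of the testis with 61 and 60 counts in VPR recruitment, and the pseudogene LOC389033, with 32 and 33, had 0 counts in all 6 KRAB libraries.

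Positions in GRCh38 were found for 48 members and an annotated start for 44, from GENCODE 44 or RefSeq. The median distance from the start to the nearest cluster of guide matches was 305 kb, against 1665 kb for genes silent in VPR control and 1554 kb for all genes. Within 50 kb lay 8 members (18.2%), against 2.67% of silent genes and 3.50% of all genes. Within 200 kb lay 17 (38.6%), against 10.3% and 11.6%. More than 1000 kb from any cluster of at least 2 guides lay 12 members (27.3%), against 63.2% of silent genes and 61.7% of all genes. The cluster was upstream of the start in 20 members and downstream in 24. Distance was not used by the rule, and these shares are a description without a test.

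**Figure D4:**
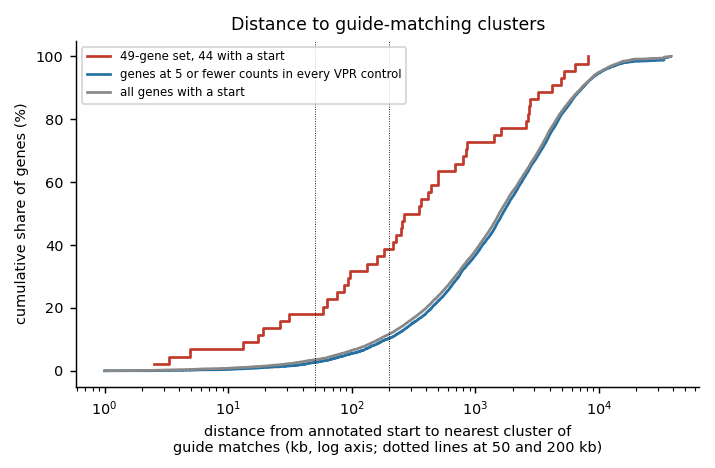
Cumulative share of genes (%) against the distance in kb (log axis) from the annotated start to the nearest cluster of matches to at least 2 guides, for the 44 members with a start, the genes at 5 or fewer counts in every VPR control library and all genes. Dotted lines mark 50 and 200 kb, where the members stand at 18.2% and 38.6%.

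The nearest member was KRT16P1 at chr17:18439985-18442734 on the plus strand, whose cluster at chr17:18437289-18437469 ends 2.52 kb upstream of the start. PNLDC1, at chr6:159800249-159820704 on the plus strand, had a cluster 4.90 kb upstream, and GSTA3, at chr6:52896639-52909698 on the minus strand, had one 13.3 kb upstream. The matched sites beside these 3 genes are printed as read from hg38 on the strand of the match, with the adjacent motif in capitals, because they are the targets closest upstream of members.
KRT16P1, LTR5HS-4: agcccgacacccgtaaAGG
KRT16P1, LTR5HS-8: taaagggtctgtgctgAGG
KRT16P1, LTR5HS-2: aaaaccgccttagggcTGG
PNLDC1, LTR5HS-1: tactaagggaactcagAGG
PNLDC1, LTR5HS-2: aaaaccgccttagggcTGG
PNLDC1, LTR5HS-8: taaagggtctgtgctgAGG
PNLDC1, LTR5HS-7: aaccttggacaataccTGG
GSTA3, LTR5HS-7: aaccttggacaataccTGG
GSTA3, LTR5HS-4: agcccgacacccgtaaAGG
GSTA3, LTR5HS-8: taaagggtctgtgctgAGG
GSTA3, LTR5HS-9: gacattccattgcccaGGG
GSTA3, LTR5HS-2: aaaaccgccttagggcTGG
GSTA3, LTR5HS-1: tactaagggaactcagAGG
Guides 2, 8, 4, 7 and 1 recur among the 3 clusters, and the sites lie outside the gene they are listed with. KRT16P1 had 105 and 112 counts in VPR recruitment, above GSTA3 with 45 and 48 and PNLDC1 with 26 and 38, so the smallest distance of the 3 went with the most reads and the next smallest with the fewest.

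LOC440896, now LINC03025 in RefSeq, had its nearest cluster inside the gene, 3.30 kb downstream of the start used. That start, at 41108930 on the minus strand, lies within the gene span of chr9:41100967-41124814. NBPF13P, a pseudogene of the neuroblastoma breakpoint family, had a cluster 17.5 kb into the gene. In 6 members the gene span itself held a cluster, among them DOCK2, NPFFR2, ANKRD55 and MAGEA10-MAGEA5. The DOCK2 cluster lay 360 kb downstream of the annotated start. Measured from the nearest edge of the gene, 16 of 48 members (33.3%) lay within 50 kb, against 3.44% of silent genes. LOC440896 and PGM5 lie in duplicated sequence of chromosome 9 and KRT16P1, NBPF13P and GGT3P have close copies, so reads and guide matches there could belong to another copy. Without these 5, 3 of 39 members (7.69%) were within 50 kb and 12 (30.8%) within 200 kb. The 5 were picked by hand and all lie within 50 kb of a cluster, so the lower share follows from the choice. No gene was taken out of the comparison sets in the same way. Among protein-coding genes only, 4 of 35 members (11.4%) were within 50 kb, against 3.52% of 3836 silent protein-coding genes.

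The members farthest from a cluster were ZP4, a component of the egg coat, at 8192 kb, ADCY8 at 6374 kb and SLC8A3 at 5210 kb. ZP4 had 64 and 70 counts in VPR recruitment and 1, 0, 0 and 0 in control, and it had a single read in all 6 KRAB libraries. TAT, at 3222 kb, and FEV, at 4181 kb, were likewise far from a cluster and among the 14 members with the most reads. Members with many reads were thus found both near to and far from a match of at least 2 guides.

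Of the 44 members with a start, 18 had another gene of the table within 100 kb that was higher in VPR recruitment, against 15.7% of the genes tested. A neighbour more than 4-fold higher was found for 12 members (27.3%), against 4.87% of genes. LINC01260 and KCNK15 count among the 12 only through each other, which the rule chose for high counts, and 10 members (22.7%) had such a neighbour outside the set. The shares count members with several neighbours each and are not on the same footing. GBP2 lies 60.9 kb from GBP1, another interferon-inducible guanylate-binding protein, which had 3516 and 2781 counts in VPR recruitment and 27, 1, 3 and 1 in control. CD244 lies 91.9 kb from ITLN2, which had 312 and 373 counts against 11, 14, 14 and 18. EVX1 adjoins the HOXA cluster, where HOXA11 had 514 and 404 counts against 19, 11, 21 and 8, and EVX1-AS had 20 and 29 counts. LINC01260 and KCNK15, whose starts lie 82.4 kb apart on chromosome 20, were the only members within 100 kb of each other.

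LOC284395, which GENCODE now names VSTM2B-DT, starts 0.242 kb from VSTM2B on the other strand. VSTM2B had 424 and 968 counts in VPR recruitment against 5, 2, 4 and 8, and both genes had more counts in replicate 2. RefSeq lists TMEM257 as an older name of SLITRK2, a neuronal membrane protein, so no position of its own was used. TMEM257 had 84 and 87 counts with VPR recruitment and SLITRK2 had 8971 and 9709 against 229, 108, 83 and 44. In the KRAB lines SLITRK2 had 47 and 31 counts with recruitment and 263, 249, 390 and 1020 in control, with a log2 fold change of -2.78 (SE 0.21) and an adjusted p of 7.99e-05 by edgeR. Of 19 neighbours more than 4-fold higher with VPR that were no members, 6 were tested in the KRAB fit and 1 was called, ITLN2, with 2 and 1 counts in recruitment and 35, 25, 44 and 111 in control. Its log2 fold change was -4.25 (SE 0.45) with an adjusted p of 0.000547 by edgeR. CD244 beside it had 0 and 0 counts in KRAB recruitment and 0, 0, 2 and 7 in control.

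Exons of other annotated genes overlap several members, and no strand setting of the counting is given in the sources used here. Exons of EVX1 overlap EVX1-AS, those of TAT overlap TAT-AS1, those of LYPD1 overlap GPR39 and those of KCNK15 overlap RIMS4, all on the other strand. On the same strand, exons of GBP2 overlap GBP7 and those of VSTM2A overlap VSTM2A-OT1. Exons of PGM5 overlap, also on the same strand, a gene that GENCODE names LINC03025, the RefSeq name of LOC440896. Whether the reads of PGM5 and LOC440896 are separate was not tested. GPR39 had 7 and 4 counts in VPR recruitment, below LYPD1 with 78 and 76. RIMS4 had 442 and 621 counts with VPR recruitment but 840, 880, 473 and 689 in control, whereas KCNK15 had 49 and 50 against 3 or fewer.

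Promoter windows in RefSeq, 250 bases before to 50 after the start in GRCh38, were found for 29 members. Their median GC content was 61.0%, against 49.3% in 4762 silent genes and 62.0% in all 18034 genes with such a window. The observed to expected ratio of CpG had a median of 0.469, between 0.261 in silent genes and 0.741 in all genes. The GC box GGGCGG on either strand was in 12 of 29 windows (41.4%), against 23.2% of silent and 55.1% of all windows. The TATA box TATAAA was in 4 (13.8%), against 19.6% and 9.88%, and the E-box CACGTG was in 4, against 5.48% and 8.52%. The octamer ATGCAAAT and the cyclic AMP element TGACGTCA, searched on both strands, were in none of the 29. By base composition the member windows thus lay between silent genes and the whole table, or close to the latter.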

How the data were processed

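The authors deposited 1 table of raw read counts, with a row per gene and a column per library and no normalization, beside the gene length. Per the labels, poly(A) RNA was sequenced, and the submitters' processing notes name CASAVA 1.8, cutadapt 1.8.1, HISAT2 2.1.0, featureCounts 1.4.6-p2 and hg38. The annotation and strand setting are not given in the sources used here. The 49 genes, the lists and the tests were chosen with earlier results of these data known. Totals, 13601701 to 69797411 counts, set the precision, and floors cover counting error only.

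KRAB recruitment (2 libraries) was tested against pooled control (4) with edgeR 4.0.16 in R 4.3.3 (filterByExpr, TMM, quasi-likelihood, two-sided, Benjamini-Hochberg adjustment over all genes tested, threshold 0.05), with DESeq2 1.42.0 as an alternative. CPM in the tests is TMM-scaled, and CPM of sums, markers and limits is per library total. On simulated data of this comparison, over 15520 genes, edgeR recovered 72 of 100 2-fold and 88 of 100 4-fold changes. Of its 174 calls 14 were false. Only genes past the filter on low counts were simulated, so these rates do not cover the members that failed it. Replicate numbers come from the labels. The replicate differences of the 3 arrays correlated with r of 0.203 to 0.425 within KRAB and 0.237 to 0.328 within VPR, so the numbers were taken to pair the libraries. The main test nevertheless held no replicate term. Pairing entered only as an alternative, the replicate block, in which 3.27% of genes were called. The other alternatives were size factors, no filter, either control array, all 12 libraries, a threshold of 0.01, leaving out libraries, other limits of the rule and other distances. Protein-coding genes only, members in duplicated sequence left out and KRAB depth scaled or without the deepest library were alternatives chosen after seeing the data.

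Guide sequences came from the study's supplementary list, and their matches were found in hg38. Positions came from GENCODE 44 for 43 members and from RefSeq on GRCh38 for 5, and promoter windows from RefSeq. Genes named are the 12 with the highest mean CPM in VPR recruitment, the 5 highest in KRAB control and 3 in KRAB recruitment, up to 4 per family, those next to the limits, the 5 nearest to and 3 farthest from a guide cluster, and others where the text says so or where they fill a count. Markers and families were read by symbol. Python 3.11.15, pandas 2.3.3 and matplotlib 3.10.9 were used.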

Additional observations from a re-analysis of the deposited data

Results flagged for a closer look

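Each of the 49 members was examined in the 4 dCas9-KRAB control libraries, on TMM-scaled CPM, for a library far from the others. A library was flagged when its gap to its nearest neighbour exceeded Dixon's 95% critical share of the whole range. For normally distributed values chance gives this in about 1 of 20 groups. That rate does not hold for counts this low. In 9 members 1 library held the only reads, so the ratio was 1.0. The library was nontarget Sp replicate 1 for AKR1B15 and ZP4 (1 read each), LTR5HS Sa replicate 1 for EVX1 (1 read) and nontarget Sp replicate 2, the deepest library, for KRTAP5-8, NBPF13P, PGC and SOHLH1 (1 read each), SLC8A3 (2 reads) and OVCH1 (3 reads). All are at or below 3 counts.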

How the results depend on the processing

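The count of members called with CRISPRi was 0 in the main comparison and under each alternative that tested any member. The lowest adjusted p over those alternatives was 0.119 by edgeR, with all 12 libraries in 1 fit, and with the replicate block it was 0.367. All 49 members passed the filter of the 12-library fit, against 2 in the main comparison. That filter drew on the VPR libraries that chose the members, so this fit gives no independent support. Among fits of KRAB libraries alone the lowest adjusted p was 0.140 by edgeR, without the filter. The replicate block changed no call. With LTR5HS Sa alone as control no member passed the filter, so no value is given. The median log2 fold change of the members fitted was -0.73, over 2 members. It was -1.18 without the filter (47 members) and -1.36 with nontarget Sp alone, and it ran from -1.57 to -0.49 when 1 library was left out, with 1 to 6 members fitted, the lowest without KRAB LTR5HS Sp replicate 1 and the highest without its replicate 2. With the replicate block it was -0.71. PNLDC1 and HTR1B were lower in recruitment in every alternative that fitted them. The rule gave 17 genes at 2 or fewer counts in control, 120 at 10 or fewer and 23 at 50 or more with recruitment, and 53 to 72 when 1 library was left out. Within 50 kb of a cluster lay 16 members by the gene edge, 4 among protein-coding genes and 3 without the members in duplicated sequence, in place of 8. These smaller counts come from fewer genes by construction, and the members in duplicated sequence, picked by hand, all lay within 50 kb. The cause of the other shifts was not tested. With KRAB counts scaled to the lowest total 41 members, in place of 30, had 5 or fewer counts in every KRAB library, and 37 without the deepest. Depth limits the KRAB comparison, as 47 members did not pass its filter on low counts.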
